A study of Mus musculus with 12 samples.

Results

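Tissue-type plasminogen activator (tPA), the secreted protease encoded by Plat, acts in brain through receptors that bind it and through proteins that it or plasmin cleaves. The transcripts of 10 genes tied to tPA or plasmin in these or related ways were examined, out of 27131 genes measured. They were compared between mice that lack a working Plat gene and wild-type mice. The 10 genes were picked by name, and all 10 were found in the deposited table. They comprise the receptors Lrp1, Lrp8, Vldlr, Anxa2 with its partner S100a10, Ngfr and Egfr, and the ligands and substrates Reln, Pdgfc and Mmp9. Ngfr is included as a receptor of neurotrophins and of their precursors, which plasmin can convert, not as a receptor that binds tPA. The 12 mice were 6 weeks old, on the C57BL/6 background, and gave 1 brain library each, in 3 groups of 4: Plat-/- mice of a strain called Old in the sample titles, Plat-/- mice of an independent strain called New, and wild-type mice (WT) bought from Jackson Labs. Only the WT mice were purchased, so where an animal came from cannot be told apart from its genotype when either strain is set against WT. Neither the deleted stretch of Plat nor any animal's sex is stated in the labels.

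The biology behind the selection is as follows. Lrp1 is a large endocytic receptor of neurons, glia and vessels that clears tPA bound to its inhibitors and passes signals on when tPA binds. Annexin A2 and S100A10 form a complex at the cell surface that brings tPA and plasminogen together, which speeds the making of plasmin. Plasmin and tPA then act on substrates such as the latent growth factor PDGF-CC, which tPA turns into a ligand of the PDGF alpha receptor, and reelin, which guides the layering of neurons during development and tunes synapses in the adult through its receptors ApoER2 (the product of Lrp8) and Vldlr.

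Plat itself was checked first. It lay at 1.395 to 2.09 FPKM in Old, at 2.77 to 3.15 FPKM in New and at 6.93 to 9.83 FPKM in WT (n = 4 each), so that both knockout groups lay below every WT library. Every Old library also lay below every New library, with a difference of -0.69 on the log2(FPKM + 0.1) scale that did not pass over all genes (limma, adjusted p = 0.807). FPKM counts sequenced fragments per kilobase of transcript and per unit of library depth, so that levels can be set beside each other between genes. The libraries Old 1 and WT 4 stood apart from the rest, with a Spearman correlation of 0.964 with each other and of 0.921 to 0.939 with the other 10, which correlated at 0.959 to 0.972 among themselves across 16203 genes. Tests of the members are therefore given with all 12 libraries and without these. In 10 libraries low FPKM values fell on steps of whole fragments, from which a depth of about 17000000 to 37300000 fragments per library was estimated. In Old 1 and WT 4 such steps were not clear. The label names cerebral cortex, and cortical neuron genes were present (Tbr1 at 21.3 to 28.8 FPKM), as was the striatal receptor Drd2 (9.43 to 13.6 FPKM). In the protocol the olfactory bulb and cerebellum were taken off and the rest of the brain was frozen. Ddx3y, a gene of the Y chromosome, stood at 6.51 to 15.4 FPKM in Old 1, Old 4, New 1 and WT 4 and at no more than 0.0242 FPKM in the others, so each group held libraries of both kinds. Without Old 1 and WT 4 this no longer holds: WT then has no Ddx3y library, while Old keeps Old 4 and New keeps New 1. In such bulk RNA, fewer cells of a type and less RNA per cell cannot be told apart.

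The 10 genes spanned a wide range of levels. Lrp1 was the highest, with a mean of 45.8 FPKM over the 12 libraries (41.4 to 60.15), which placed it at percentile 93.7 of the tested genes. S100a10 followed at 15.4 FPKM, then Vldlr at 11.75, Lrp8 at 11.2, Reln at 9.49, Anxa2 at 4.07, Egfr at 3.75, Pdgfc at 1.84, Ngfr at 0.712 and Mmp9 at 0.308 FPKM. Most steps of this order held in all 12 libraries, but neighbours at a like level changed places. Vldlr lay above Lrp8 in 8 of 12 libraries and Anxa2 above Egfr in 9 of 12, so neither pair was ordered beyond its spread. Lrp8 lay above Reln in each of the 12 libraries, yet the range of its values overlapped that of Reln in Old and in WT. Mmp9 fell under the filter of 0.5 FPKM on the mean over all libraries, and the other 9 genes were tested.

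**Figure D1:**
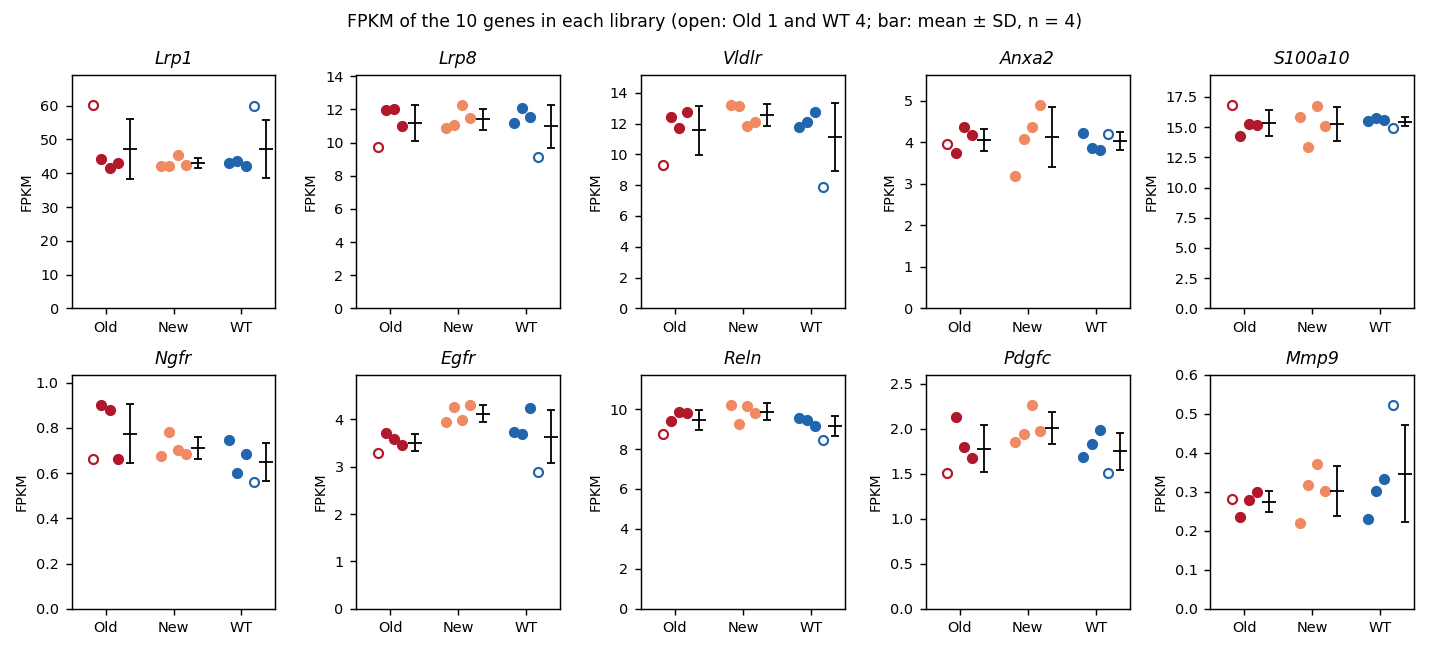
FPKM (vertical axes, from 0) of each of the 10 genes in each library of Old, New and WT. Points are libraries, open points are Old 1 and WT 4, and bars give the mean ± SD of 4 libraries; Lrp1 lies at 60.15 FPKM in Old 1 and 59.99 FPKM in WT 4 and at 41.4 to 45.3 FPKM elsewhere.

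Do these receptors and substrates differ in brain when Plat is lost? None of the 9 tested genes passed the threshold in any comparison with limma (Benjamini-Hochberg over all tested genes, threshold 0.05). In Old against WT, 0 of 9 passed, where 4 of 16203 tested genes did (0.0247%). In New against WT, 0 of 9 passed, against 0.00617% of all tested genes. In Old against New, 0 of 9 passed, against 0.0123%. For the mean of Old and New against WT, 0 of 9 passed, against 0.0123%. Without a correction for the number of genes, p under 0.05 was reached by 0 of 9 in each of the 4 contrasts, where it was reached by 1.67%, 2.22%, 1.14% and 2.22% of all tested genes in the same order. Without Old 1 and WT 4 again 0 of 9 passed in each contrast (0.0494%, 0.0123%, 0.0370% and 0.0185% of 16209 genes), and 1 gene, Egfr in Old against New, had an unadjusted p under 0.05, against 4.69% of all genes in that contrast. The other contrasts had 0 of 9 at that level, against 5.94% of all genes in Old against WT, 10.6% in New against WT and 9.08% for the mean of both. A p that misses the threshold does not show that groups are alike, so the interval of each difference is given below.

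The endocytic receptor Lrp1 (chromosome 10, 127538161 to 127621148, minus strand, mm10, protein-coding) had 60.15, 44.1, 41.4 and 42.9 FPKM in Old 1 to Old 4 and 42, 42.27, 45.3 and 42.28 FPKM in New 1 to New 4. In WT 1 to WT 4 it had 42.96, 43.68, 42.01 and 59.99 FPKM. Old 1 and WT 4 were high, and the remaining libraries of all groups lay within 41.4 to 45.3 FPKM and overlapped. The difference was -0.001 in Old minus WT (95% interval -0.30 to 0.30) and -0.12 in New minus WT (-0.42 to 0.18) on the log2(FPKM + 0.1) scale (limma, adjusted p = 1 and 0.965). Without Old 1 and WT 4 the intervals narrowed to -0.09 to 0.08 in Old minus WT and to -0.08 to 0.08 in New minus WT, with differences of -0.002 and 0.002. Lrp1 then had a standard deviation between mice of 1 group of 0.044 log2 units, at percentile 8.4 of all tested genes. The standard deviation was 0.202 with all 12 libraries, at percentile 41.9.

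ApoER2, encoded by Lrp8 (chromosome 4, 107802261 to 107876840, plus strand), binds reelin on neurons and couples it to the adaptor Dab1. Lrp8 had 9.73, 11.97, 12.01 and 10.98 FPKM in Old 1 to Old 4, 10.85, 11.04, 12.26 and 11.46 FPKM in New 1 to New 4, and 11.15, 12.07, 11.55 and 9.14 FPKM in WT 1 to WT 4. Old 1 and WT 4 were the lowest libraries, and the groups overlapped throughout. Differences were 0.03 in Old minus WT (-0.19 to 0.25) and 0.06 in New minus WT (-0.16 to 0.28), and without Old 1 and WT 4 they were 0.008 (-0.12 to 0.14) and -0.02 (-0.14 to 0.09).

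Vldlr (chromosome 19, 27216484 to 27254231, plus strand), the other reelin receptor, which also takes up complexes of proteases with their inhibitors, showed the same low libraries. It had 9.28, 12.45, 11.71 and 12.78 FPKM in Old 1 to Old 4, 13.2, 13.1, 11.8 and 12.1 FPKM in New 1 to New 4, and 11.8, 12.1, 12.8 and 7.895 FPKM in WT 1 to WT 4. The New mean of 12.6 ± 0.701 FPKM stood beside 11.1 ± 2.20 FPKM in WT (SD, n = 4 each), and the ranges overlapped. The difference in New minus WT was 0.20 (-0.13 to 0.52; limma, adjusted p = 0.965) with all libraries, and 0.04 (-0.08 to 0.16) without Old 1 and WT 4. In Old minus WT the same values were 0.07 (-0.26 to 0.39) and 0.01 (-0.11 to 0.14).

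The values of Lrp1 and Vldlr in Old 1 and WT 4 went with the GC content of their transcripts. The longest Lrp1 transcript in GENCODE M21 has a GC content of 57.9%, and Lrp1 lay 0.49 log2 units above the mean of the other 10 libraries in Old 1 and 0.48 above it in WT 4. The 1039 tested genes within 1 percentage point of that GC content had a median deviation of 0.48 in Old 1 and 0.37 in WT 4. Vldlr, at a GC content of 43.8%, deviated by -0.41 in Old 1 and by -0.64 in WT 4, and 1459 genes of like GC content had medians of -0.46 and -0.62. Egfr (44.4%) and Lrp8 (47.4%) were also low in both libraries. Egfr deviated by -0.23 in Old 1 and -0.41 in WT 4, less than the medians of -0.44 and -0.59 for its GC content. Other members lay off the medians too: in Old 1 Pdgfc at -0.32 (median -0.07) and S100a10 at 0.14 (median -0.04), and in WT 4 Anxa2 at 0.06 (median -0.12). Ngfr did not follow its neighbours in GC content: at 58.6% it deviated by -0.12 in Old 1 and by -0.32 in WT 4, where 861 genes of like GC content had medians of 0.53 and 0.44. In the other 10 libraries the medians for the GC contents of all 9 genes lay between -0.045 and 0.052.

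**Figure D2:**
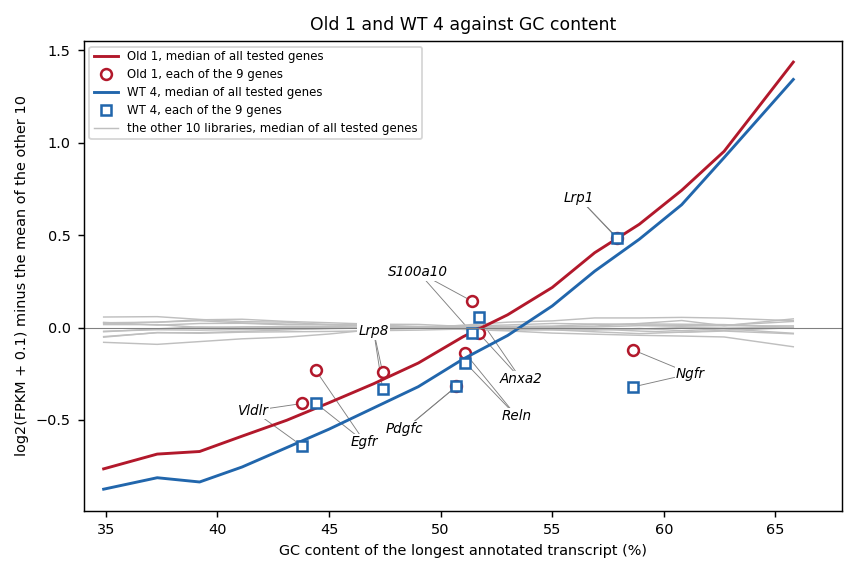
Deviation of Old 1 and WT 4 from the mean of the other 10 libraries (vertical axis, log2(FPKM + 0.1)) against transcript GC content (horizontal axis, %). Coloured lines are medians of all tested genes in bins of GC content, grey lines the other 10 libraries, and symbols the 9 genes; Lrp1 and Vldlr lie near the lines, while Ngfr lies 0.12 and 0.32 below zero where the lines are above it.

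Annexin A2 and S100A10 are the heavy and light subunits of the complex that holds tPA and plasminogen at the cell surface. Anxa2 (chromosome 9, 69453620 to 69491795, plus strand) had 3.96, 3.74, 4.37 and 4.17 FPKM in Old 1 to Old 4, 3.19, 4.07, 4.38 and 4.90 FPKM in New 1 to New 4, and 4.22, 3.87, 3.81 and 4.21 FPKM in WT 1 to WT 4. New held both the lowest and the highest library, and the groups overlapped. Differences were 0.01 in Old minus WT (-0.245 to 0.265) and 0.02 in New minus WT (-0.234 to 0.276), and without Old 1 and WT 4 they were 0.04 (-0.26 to 0.34) and 0.04 (-0.24 to 0.32). Of the 9 genes Anxa2 varied most between mice of 1 group once Old 1 and WT 4 were left out, with a standard deviation of 0.183 log2 units, at percentile 76.0 of all tested genes.

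S100a10 (chromosome 3, 93555080 to 93564643, plus strand) had 16.82, 14.25, 15.24 and 15.15 FPKM in Old 1 to Old 4, 15.86, 13.35, 16.72 and 15.12 FPKM in New 1 to New 4, and 15.51, 15.78, 15.55 and 14.94 FPKM in WT 1 to WT 4. With all libraries the groups overlapped, and the differences were -0.01 in Old minus WT (-0.185 to 0.166) and -0.02 in New minus WT (-0.20 to 0.15). Without Old 1 and WT 4 the 3 Old libraries (14.25 to 15.24 FPKM) lay below the 3 WT libraries (15.51 to 15.78 FPKM), a difference of -0.07 (-0.23 to 0.09; limma, adjusted p = 0.926). In New minus WT the difference was then -0.04 (-0.19 to 0.11). S100a10 was the 1 gene of 9 whose groups did not overlap there, and 10.1% of all tested genes did not overlap in that contrast. None of the 9 was apart in New against WT, where 10.8% of genes were, or for both strains together against WT, where 3.38% were.

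Within a library, Anxa2 stood at 0.265 ± 0.0218 times S100a10 in Old, 0.273 ± 0.0546 times in New and 0.261 ± 0.0189 times in WT (SD, n = 4 each). The ratio did not part the groups (Old minus WT 0.02 and New minus WT 0.04 on the log2 scale; exact two-sided permutation test, p = 0.8286 each, adjusted p = 1 over 9 tests of 3 ratios). New 1 had the lowest ratio, 0.201, and New 4 the highest, 0.324. Across the 10 libraries other than Old 1 and WT 4 the levels of Anxa2 and S100a10 showed no relation (Pearson r = -0.02, permutation p = 0.975; Spearman rho = -0.07, p = 0.863; adjusted over 2 relations 0.977 and 0.947). Without New 1 and New 4, the libraries farthest from the Anxa2 median, r was 0.33. From the estimated depths Anxa2 rested on about 151 to 355 fragments and S100a10 on about 181 to 408. Counting errors were 5% to 8% and 5% to 7%. S100a10 had a standard deviation between mice of only 0.095 log2 units there. Counting error could hide a relation, so these values do not show that none exists.

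Lrp8 stood at 0.974 ± 0.0847 times Vldlr in Old, 0.911 ± 0.0999 times in New and 1.00 ± 0.111 times in WT (SD, n = 4 each), and the groups overlapped (exact two-sided permutation tests, adjusted p = 0.643 to 1). Lrp1 was set against Lrpap1, the chaperone that keeps it from binding ligands on its way to the surface. Lrpap1 varied little, from 26.7 to 28.75 FPKM over the 12 libraries, Old 1 (27.9) and WT 4 (27.55) included. The Lrp1 to Lrpap1 ratio was 2.16 in Old 1 and 2.18 in WT 4 and 1.47 to 1.65 in the other 10 libraries, and no pair of groups passed the test (adjusted p = 0.643 to 1). With 4 libraries a group the smallest exact p is 0.0286, so over 9 tests 1 ratio by itself cannot pass after adjustment, and these tests say little about whether the ratios are alike.

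**Figure D3:**
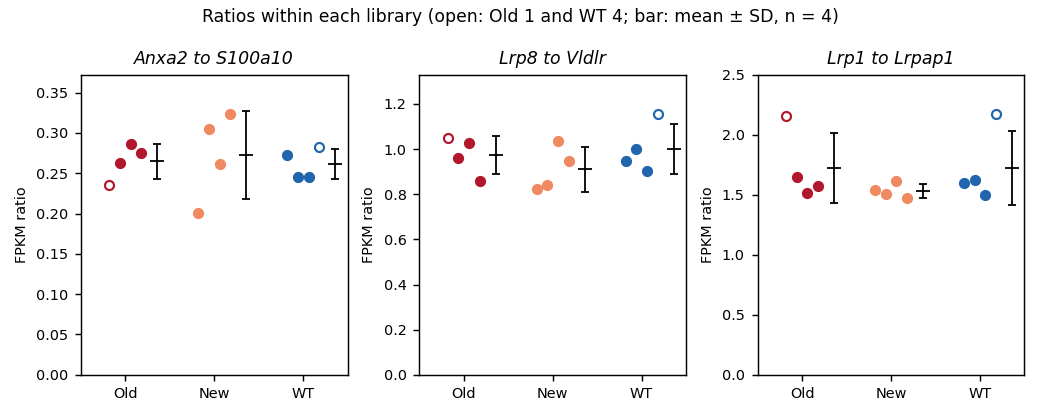
Ratios of FPKM within each library (vertical axes, from 0) for Anxa2 to S100a10, Lrp8 to Vldlr and Lrp1 to Lrpap1 in Old, New and WT. Points are libraries, open points are Old 1 and WT 4, and bars give the mean ± SD of 4 libraries; the open points reach 2.16 and 2.18 for Lrp1 to Lrpap1, against 1.47 to 1.65 in the other 10.

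Egfr (chromosome 11, 16752203 to 16918158, plus strand) encodes the epidermal growth factor receptor, through which tPA has been reported to signal in neural cells. It had 3.29, 3.71, 3.58 and 3.45 FPKM in Old 1 to Old 4, 3.94, 4.27, 3.99 and 4.30 FPKM in New 1 to New 4, and 3.73, 3.69, 4.24 and 2.895 FPKM in WT 1 to WT 4. Every Old library lay below every New library, while WT overlapped both groups. The difference in Old minus New was -0.23 (-0.46 to 0.001) with all libraries and -0.20 (-0.34 to -0.06) without Old 1 and WT 4 (limma, adjusted p = 0.985 and 0.972; 0.686 to 1 over the alternatives). With the trend on GC content taken out of each library it was -0.15. Egfr was the 1 gene of 9 whose groups did not overlap in Old against New, where 1.79% of all tested genes did not (5.96% without Old 1 and WT 4). Its exact two-sided permutation p of 0.0286, the smallest that 4 against 4 allows, was the 1 value under 0.05 among 30 such tests of the 10 genes in 3 contrasts, before any correction. No member's groups were apart in Old against WT or New against WT with all libraries, where 1.10% and 2.60% of tested genes were, nor for both strains together against WT, where 0.370% were.

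Summed levels of astrocyte and of oligodendrocyte precursor markers, cell types that carry Egfr, overlapped between Old and New. The sum of 8 astrocyte markers ran from 638.2 to 843.4 FPKM in Old and from 809.6 to 824.1 FPKM in New, with none listed at 0. The sum of 6 oligodendrocyte precursor markers ran from 56.8 to 91.7 FPKM in Old and from 55.7 to 62.8 FPKM in New. Outside these cell types, the sum of 7 mural markers was 31.1 to 32.6 FPKM in Old and 33.1 to 35.6 FPKM in New. These did not overlap, and WT spanned 29.25 to 34.07 FPKM. The 8 oligodendrocyte markers summed to 1620 to 1800 FPKM in Old, 1683 to 1843 in New and 1483 to 1608 in WT. WT thus lay below both strains for that sum. The part of these cell types in the Egfr values was not tested. In comparison with WT, the Egfr difference was -0.04 in Old (-0.27 to 0.19) and 0.19 in New (-0.04 to 0.42). Without Old 1 and WT 4 it was -0.11 in Old (-0.265 to 0.04) and 0.085 in New (-0.06 to 0.23), and leaving out WT 4 alone gave -0.14 in Old and 0.085 in New.

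Ngfr (chromosome 11, 95568818 to 95587735, minus strand) encodes a receptor of neurotrophins and of their uncleaved precursors, which plasmin can convert to the mature form. In adult forebrain it is known from cholinergic neurons. It had 0.661, 0.900, 0.879 and 0.661 FPKM in Old 1 to Old 4, 0.675, 0.784, 0.705 and 0.684 FPKM in New 1 to New 4, and 0.747, 0.602, 0.685 and 0.562 FPKM in WT 1 to WT 4. Old 2 and Old 3 were the highest libraries and WT 4 the lowest, and the groups overlapped. The difference was 0.22 in Old minus WT (-0.11 to 0.55; limma, adjusted p = 1), the largest of the 9 genes in that contrast, and 0.12 in New minus WT (-0.21 to 0.45). Without Old 1 and WT 4 it was 0.225 (-0.12 to 0.57) and 0.06 (-0.26 to 0.38), and leaving out WT 4 alone gave 0.064 in New minus WT. With a pseudocount of 1, which weighs more on so low a gene, the differences were 0.105 in Old minus WT and 0.055 in New minus WT. The summed level of 6 cholinergic markers, none listed at 0 in all libraries, was 4.36 to 5.36 FPKM in Old, 3.94 to 4.93 FPKM in New and 4.11 to 4.68 FPKM in WT, with Old 1 highest. Its part in the Ngfr values was not tested. From the estimated depths Ngfr rested on about 35 to 103 fragments in each of the 10 libraries with clear steps, a counting error of 10% to 17%.

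Reln (chromosome 5, 21884454 to 22344702, minus strand) encodes reelin, which inhibitory neurons secrete in the adult cortex and which tPA can cleave. It had 8.77, 9.43, 9.86 and 9.80 FPKM in Old 1 to Old 4, 10.19, 9.28, 10.18 and 9.81 FPKM in New 1 to New 4, and 9.53, 9.44, 9.16 and 8.46 FPKM in WT 1 to WT 4. Old 1 and WT 4 were the lowest libraries, and each group overlapped the others. The difference was 0.05 in Old minus WT (-0.10 to 0.20) and 0.11 in New minus WT (-0.04 to 0.26; limma, adjusted p = 0.965), and 0.05 (-0.05 to 0.15) and 0.07 (-0.02 to 0.16) without Old 1 and WT 4. Reln was among the steadiest of all tested genes, with a standard deviation between mice of 1 group of 0.073 log2 units with all libraries, at percentile 4.2, and of 0.048 without Old 1 and WT 4, at percentile 11.2. Across those 10 libraries the levels of Reln and of its receptor gene Lrp8 showed no relation (Pearson r = 0.01, permutation p = 0.977; Spearman rho = -0.03, p = 0.947; the adjusted values are the same). Without New 1 and WT 3, the libraries farthest from the Reln median, r was 0.36.

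Pdgfc (chromosome 3, 81036416 to 81214040, plus strand) encodes the latent growth factor that tPA activates by cutting off its CUB domains, a step tied to the opening of the blood-brain barrier. It had 1.51, 2.13, 1.79 and 1.68 FPKM in Old 1 to Old 4, 1.85, 1.94, 2.26 and 1.97 FPKM in New 1 to New 4, and 1.68, 1.83, 1.98 and 1.51 FPKM in WT 1 to WT 4. Old 1 and WT 4 were again the lowest, and the groups overlapped. The difference was 0.02 in Old minus WT (-0.25 to 0.29) and 0.19 in New minus WT (-0.08 to 0.46; limma, adjusted p = 0.965), and 0.02 (-0.22 to 0.27) and 0.13 (-0.11 to 0.36) without those libraries.

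Mmp9 (chromosome 2, 164940780 to 164955850, plus strand) encodes a gelatinase of the matrix around vessels and synapses, which tPA can induce through Lrp1. It had 0.281, 0.236, 0.280 and 0.2996 FPKM in Old 1 to Old 4, 0.219, 0.317, 0.371 and 0.301 FPKM in New 1 to New 4, and 0.230, 0.302, 0.333 and 0.522 FPKM in WT 1 to WT 4. WT 4 was the highest library, and the groups overlapped. In a limma fit with no filter, over 24119 genes, the difference was -0.22 in Old minus WT (-0.64 to 0.20) and -0.13 in New minus WT (-0.547 to 0.295), with adjusted p = 1 and 0.979. Without WT 4 the WT mean was 0.288 ± 0.0526 FPKM (SD, n = 3), against 0.347 ± 0.125 FPKM with it (n = 4). From the estimated depths Mmp9 rested on about 12 to 42 fragments in each of 10 libraries, a counting error of 15% to 28%.

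Neutrophils can carry Mmp9, and the summed level of their markers was also highest in WT 4. The 7 neutrophil markers, all in the table and none at 0 in every library, summed to 1.62 to 4.07 FPKM in Old, 1.38 to 3.07 FPKM in New and 0.667 to 6.38 FPKM in WT, with 6.38 FPKM in WT 4. Old 1 had the next highest sum, 4.07 FPKM. These markers are low genes: the highest, S100a9, averaged 0.783 FPKM, and no counting error was estimated for them. S100a8, a defining gene of neutrophils, was listed at 0 in Old 2 and Old 4 and stood at 1.67 FPKM in WT 4. In the remaining libraries it stood at 0.254 to 1.37 FPKM, with 1.37 FPKM in New 1 and 1.25 FPKM in Old 1. The 8 meningeal fibroblast markers summed to 28.6 to 37.0 FPKM in Old, 28.2 to 35.96 FPKM in New and 26.9 to 50.0 FPKM in WT. The high sum in WT 4 came from Col1a1, a collagen chain, which stood at 20.01 FPKM in WT 4 and at 2.45 to 5.48 FPKM elsewhere. Without it, a sum added after seeing the data, the other 7 came to 23.97 to 31.9 FPKM in Old, 25.8 to 30.6 FPKM in New and 24.3 to 30 FPKM in WT, with WT 4 at 30 FPKM inside the range of the other libraries. Pdgfra, the highest of these markers, was at its lowest in WT 4 (7.09 FPKM). The summed level of 7 microglial markers was 93.1 FPKM in WT 4 and reached 96.3 FPKM in Old 3. The longest Mmp9 transcript has a GC content of 55.2%. Tested genes around 55.0% had a median deviation of 0.117 log2 units in WT 4 and 0.217 in Old 1. The part of these cell types and of GC content in the Mmp9 value of WT 4 was not tested.

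**Figure D4:**
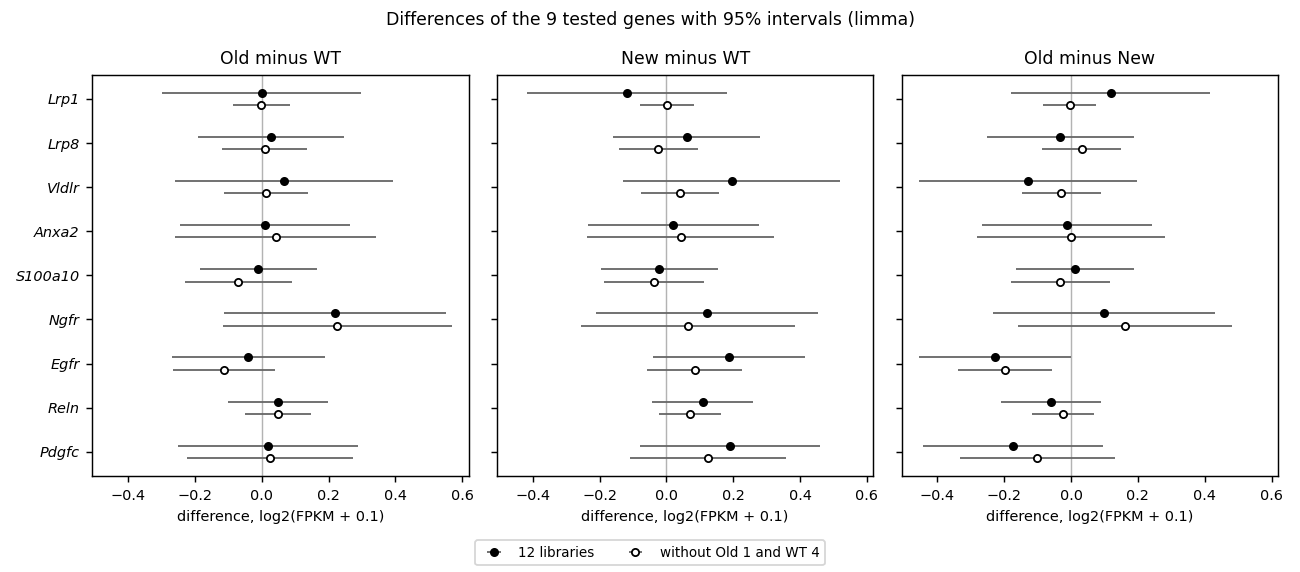
Differences (horizontal axes, log2(FPKM + 0.1)) of the 9 tested genes in Old minus WT, New minus WT and Old minus New, with 95% intervals from limma, for all 12 libraries (filled) and without Old 1 and WT 4 (open). Every filled interval crosses zero, as do the open ones other than that of Egfr in Old minus New (-0.34 to -0.06).

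The wider pathways of these genes were followed in 9 lists, which held 196 genes besides the 10, of which 154 were tested. Plat was the 1 gene that passed, lower in Old (-2.20, SE 0.13; limma, adjusted p = 1.79e-05) and lower in New (-1.51, SE 0.13; adjusted p = 0.00212) than in WT, and none of the 154 passed in Old against New. The list medians and counts of positive differences that follow keep those of the 10 genes that belong to a list, so they are not separate from the members. The medians of the lists ran from -0.001 to 0.096 in Old minus WT, where all tested genes had 0.031. They ran from -0.065 to 0.081 in New minus WT, against 0.057 for all genes, and from -0.063 to 0.066 in Old minus New, against -0.027. In the reelin list 23 of 32 genes had a positive difference in Old minus WT and 25 of 32 in New minus WT, and among all 16203 tested genes 10578 and 10625 did. The NMDA receptor list, which includes subunits that tPA acts on, had 4 of 6 positive in Old minus WT and 2 of 6 in New minus WT. In the list of neurotrophins and receptors 15 of 18 genes had a positive difference in Old minus WT and 12 of 18 in New minus WT.

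S100a16, a calcium-binding relative of S100a10, averaged 18.4 ± 1.75 FPKM in Old, 18.2 ± 0.111 FPKM in New and 16.05 ± 1.24 FPKM in WT (SD, n = 4 each). Its difference was 0.195 in Old minus WT and 0.186 in New minus WT (SE 0.08 each; limma, adjusted p = 1 and 0.965), and the New libraries lay above the WT range. The brain proteoglycan neurocan (Ncan) averaged 38 ± 0.850 FPKM in New and 34.2 ± 2.82 FPKM in WT, with a difference of 0.16 (-0.004 to 0.32). The metalloproteinase inhibitor Timp4 averaged 12.7 ± 1.05 FPKM in New and 11.2 ± 0.720 FPKM in WT, with a difference of 0.17 (-0.001 to 0.34). Shc1, an adaptor of the EGF receptor, stood at 2.69 ± 0.106 FPKM in New and 2.37 ± 0.0959 FPKM in WT (difference 0.175, -0.007 to 0.356). None of these differences passed over all tested genes. In New against WT, 6 of the 154 genes had groups that did not overlap, Plat among them, against 2.60% of all tested genes. Crkl, an adaptor downstream of Dab1, stood at 9.36 ± 0.134 FPKM in Old, 10.2 ± 0.605 FPKM in New and 9.25 ± 1.03 FPKM in WT, with overlapping groups. Pdgfra, the receptor gene of PDGF-CC, stood at 8.66 ± 1.13 FPKM in Old, 8.68 ± 0.217 FPKM in New and 7.96 ± 0.696 FPKM in WT.

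With all libraries, the remaining genes named by the same rule had overlapping groups and adjusted p of 0.965 to 1 in both contrasts with WT (limma). Their differences in Old minus WT and in New minus WT were 0.129 and 0.051 for Cdk5r1, the activator of the kinase Cdk5, 0.035 and -0.186 for the Wnt co-receptor gene Lrp5, and 0.116 and -0.025 for the proprotein convertase Pcsk6. The plasminogen-binding glycolytic enzyme gene Eno1 had -0.206 and -0.234, the vessel growth factor gene Vegfa -0.093 and 0.071, and the ErbB ligand gene Nrg4 0.120 and 0.383. The prohormone convertase Pcsk1 had 0.145 and 0.256, and the NMDA receptor subunits Grin2c and Grin3a had -0.035 and -0.219, and 0.072 and 0.201. S100a8 had -0.598 and 0.879, with libraries at 0. Several of these differences moved with Old 1 and WT 4. Pcsk1 had 7.37 FPKM in WT 4 against 11.3 to 12.8 FPKM in WT 1 to WT 3, Grin3a 6.601 against 9.81 to 10.3 FPKM, and Grin2c 8.26 against 4.95 to 5.76 FPKM. Without Old 1 and WT 4, a fit added after seeing the data for these genes, New minus WT was 0.086 for Pcsk1, 0.051 for Grin3a, -0.061 for Grin2c, -0.105 for Lrp5 and -0.143 for Eno1. Old minus WT was then 0.085 for Cdk5r1, 0.042 for Pcsk6, 0.040 for Pcsk1 and -0.184 for Vegfa. Signs turned for Crkl and Grin3a in Old minus WT (-0.049 and -0.043) and for Vegfa in New minus WT (-0.051). In New minus WT, S100a16, Ncan and Shc1 were 0.207, 0.127 and 0.178, with adjusted p of 0.373, 0.475 and 0.473 (limma). Their New libraries still lay above the WT range, and those of S100a8 then did too (difference 1.445; limma, adjusted p = 0.540). In that contrast 10.8% of all tested genes had groups that did not overlap. These genes had been named for a small p in the same data, so this is no separate support.

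The genes most like each member were taken by the Pearson correlation of log2(FPKM + 0.1) over 12 libraries after the group means were taken out, as a description. Lrp1 was most like Mtap1s (r = 0.997), Ttbk1 (0.996) and Atf6b (0.995), whose longest transcripts have GC contents of 62.1%, 56.5% and 60.3%. Lrp8 was most like Fndc3b (0.990), Clic5 (0.986) and Ptk2 (0.979), and Vldlr was most like a gene listed by ID alone (0.993) and Mfap3 (0.991). The best likeness was lower for Pdgfc (Iqck, 0.952), Reln (Pet112l, 0.947), Egfr (Ccz1, 0.945), S100a10 (Mrps23, 0.915), Ngfr (Micalcl, 0.907) and Anxa2 (Gmpr2, 0.905). These likenesses are shared by libraries of which Old 1 and WT 4 deviate most: without them, a choice made after seeing the data, 3 of the 27 genes named by this rule were named again, Fndc3b and Clic5 for Lrp8 among them (r = 0.958 and 0.950).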

How the data were processed

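The authors deposited 1 table of FPKM values, 1 column per library, with no column left unused. The submitters' processing notes name the mm10 build and the tools Cuffdiff 2.1.1, Cufflinks, TopHat2 2.0.9 and Bowtie2 2.1.0. The annotation, strand setting and scaling between libraries were not given in these sources. PolyA+ RNA was sequenced, per the labels' protocols, with a kit that does not mark strand, but the sample descriptions call the libraries rRNA-depleted; which holds is not settled here. Reads of Anxa2, Pdgfc and Reln therefore cannot be told apart from those of antisense genes, which share 98, 147 and 246 exon bases with them in GENCODE M21.

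Samples were grouped by title and columns by description. Genes with a mean of at least 0.5 FPKM (16203) were tested as log2(FPKM + 0.1), a scale that understates changes of low genes, with limma 3.58.1 (trended, 3 groups fitted together, R 4.3.3) and Benjamini-Hochberg adjustment over all tested genes. The procedure was tested on simulated data with noise drawn independently for each gene and library. These data lacked the trend on GC content of Old 1 and WT 4, so the test says nothing about that trend. Ratios were tested with exact two-sided permutation tests. The labels give 4 mice per group and do not say whether they were littermates, so p-values measure the spread between these mice. The depth is an estimate: in genes with 1 annotated transcript over 800 bases, values under 0.05 FPKM cluster at what 1 fragment is worth. Counting errors cover fragment counting only. Coordinates and GC content are from GENCODE M21 (mm10). The members and lists were chosen with earlier results of these data known. The rule for other genes took, per list, called genes and the 2 genes with the smallest unadjusted p, and the 3 genes most like each tested member. All 3 of these are given for Lrp1 and Lrp8, and the most alike one with a gene symbol for the others. Of the genes that this rule took, 1 is not reported here.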

Additional observations from a re-analysis of the deposited data

Results flagged for a closer look

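Among 39 checks of 10 genes and 3 ratios in groups of 4 libraries, 3 libraries lay far from the others of their group, all for Lrp1. Chance gives about 1 in 20 such checks, so 3 of 39 is near what chance gives. The checks are not independent, since Lrp1 also enters 1 of the ratios. In Old, Old 1 had 60.15 FPKM and the other 3 libraries 41.4 to 44.1 FPKM. In WT, WT 4 had 59.99 FPKM and the other 3 libraries 42.01 to 43.68 FPKM. In New, New 3 had 45.3 FPKM and the other 3 libraries 42 to 42.28 FPKM, a narrow group in which a small gap is enough. Old 1 and WT 4 also stood apart across all genes, and New 3 did not. In New 3, Lrp1 lay 0.079 log2 units above the mean of the libraries other than Old 1 and WT 4. Genes of like GC content had a median of 0.049 there. The part of GC content in this flag was not tested.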

How the results depend on the processing

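No member passed the threshold in any contrast under any of the alternatives run, which changed the pseudocount, the filter, the scaling, the libraries, the weights, a Ddx3y term and the GC trend; over the 3 pairwise contrasts the lowest adjusted p of a member was 0.552 (limma; Reln, New minus WT, without Old 1 and WT 4). Signs of small differences turned. In Old minus WT, Lrp8, Anxa2 and Pdgfc came to -0.002, -0.020 and -0.011 with median ratio scaling, -0.007, -0.028 and -0.007 with quantile normalization, and -0.004, -0.027 and -0.017 with the GC trend removed, and Egfr to 0.008 with a Ddx3y term. In New minus WT, Anxa2 came to -0.035 (median ratio), -0.039 (quantile), -0.040 (library weights) and -0.008 (GC trend removed), and Lrp8 to -0.042 (weights), -0.027 (GC) and -0.024 (without Old 1 and WT 4), where Lrp1 was 0.002. In Old minus New, Anxa2 came to 0.015 (median ratio), 0.011 (quantile), 0.070 (weights) and 0.016 (Ddx3y), Lrp8 to 0.059 (weights), 0.021 (Ddx3y), 0.023 (GC) and 0.032 (without Old 1 and WT 4), S100a10 to -0.017 (weights), -0.001 (Ddx3y) and -0.032 (without Old 1 and WT 4), Ngfr to -0.005 (GC) and Lrp1 to -0.004 (without Old 1 and WT 4). Leaving out 1 library at a time gave, in Old minus WT, -0.123 to 0.12 for Lrp1, -0.057 to 0.092 for Lrp8, -0.089 to 0.167 for Vldlr, -0.025 to 0.047 for Anxa2, -0.054 to 0.026 for S100a10, -0.068 to 0.089 for Pdgfc and -0.142 to 0.036 for Egfr. It gave, in New minus WT, -0.169 to 0.002 for Lrp1, -0.024 to 0.109 for Lrp8, -0.064 to 0.137 for Anxa2 and -0.067 to 0.041 for S100a10, and in Old minus New -0.004 to 0.175, -0.069 to 0.032, -0.128 to 0.074 and -0.05 to 0.057 for the same genes. The log2 ratio of Anxa2 to S100a10 ranged from -0.019 to 0.075 (Old minus WT), -0.047 to 0.183 (New minus WT) and -0.163 to 0.067 (Old minus New; 0.032 without Old 1 and WT 4), that of Lrp1 to Lrpap1 from -0.114 to 0.116 (Old minus WT; 0.004 without Old 1 and WT 4) and that of Lrp8 to Vldlr from -0.086 to 0.033 (Old minus WT). Across all 12 libraries Reln and Lrp8 had r = 0.72 (permutation p = 0.0162, adjusted 0.0325) and rho = 0.41 (p = 0.191, adjusted 0.383); without Old 1 and WT 4, the 2 libraries farthest from the Reln median, r was 0.01, so the relation rests on them. The causes were not tested.

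Of all tested genes, 4 passed in Old minus WT, 1 in New minus WT, 2 in Old minus New and 2 for both strains against WT. In Old minus WT 2 passed with only these groups fitted, 8 with library weights and 8 without Old 1 and WT 4; in New minus WT 2 passed with weights and 2 without Old 1 and WT 4. In Old minus New 1 passed at a filter of 1 FPKM, 14 with weights, 4 with the GC trend removed and 6 without Old 1 and WT 4, and in the mean contrast 5 with weights and 1 at a pseudocount of 0.01, at a filter of 1 FPKM or with quantile normalization. Ngfr has no value at a filter of 1 FPKM, and Mmp9 only without a filter, where few fragments limit it. No paired analysis was possible because the numbers of Old and New libraries follow accession order and pair no mice.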

Other observations

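The libraries Old 1 and WT 4 also differed from the rest in how low FPKM values are spaced. In genes with 1 annotated transcript, 18.6% to 44.4% of the values under 0.05 FPKM fell within 5% of what 1 fragment is worth in each of the other 10 libraries, and 9.0% did in Old 1 and 8.1% in WT 4.

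Ngfr, at the 58.6% GC content of its 1 annotated transcript, was not raised in either library (0.661 FPKM in Old 1, 0.562 FPKM in WT 4). Lrp1, at 57.9%, was high in both. WT 4 was the lowest library for Ngfr, while Old 1 lay level with Old 4 (0.661 FPKM) and above WT 2 (0.602 FPKM).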
